A study of Canis lupus familiaris and Dasypus novemcinctus and Ornithorhynchus anatinus with 3 samples.

Results

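The endometrium is the lining of the uterus, and pregnant endometrium from dog was set against pregnant endometrium from platypus, gene by gene, on messenger RNA sequencing libraries. The comparison covers 4518 genes of 9026 whose symbol occurs once in each of the dog and platypus tables, or 50.1% of these matched genes. A member had to reach 2 CPM in both libraries, where CPM (counts scaled to the sum over all genes of a table) is the measure of abundance. The labels give 1 library for dog, 1 for platypus and 1 for armadillo, with species and pregnancy as the only description. The day of pregnancy, the number of animals, their age and breed, and the part of the uterus sampled are not in the labels, and no treatment or genotype is named. The tables held 13625465 reads in dog and 2243556 in platypus, and the armadillo library entered only through the scaling. With 1 library a side no difference has a replicate check, species, animal and library cannot be told apart, and every interval given is an exact 95% interval of counting error only. In such bulk samples fewer cells of a type and less RNA per cell also cannot be told apart.

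The dog is a placental mammal, and its pregnancy is carried by an endometrium with deep glands against which trophoblast, the outer tissue of the embryo, builds a girdle-shaped placenta. The platypus is an egg-laying mammal: its embryo lies free in the uterus inside an egg coat and shell, takes up secretions of the uterine glands, and is laid before it hatches. In both, the endometrium is made of a surface and gland epithelium on a stroma of fibroblasts and vessels, with muscle beneath it, and progesterone and oestrogen set its secretion. Secreted proteins are threaded into the endoplasmic reticulum (ER), folded and glycosylated there, and carried to the cell surface in coated vesicles.

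Levels are given as normalised CPM, which is CPM times a scaling factor of 0.797 in dog and 1.20 in platypus, and a fold is the plain ratio of both levels, followed in brackets by its 95% interval where one is given. These levels are not divided by gene length, so they compare a gene between libraries and not one gene with another. A difference of 4-fold or more was counted, and from here on a gene counted as higher in a library is 4-fold or more higher there. Of the 4518 members 921 (20.4%) were 4-fold or more higher in dog, 833 (18.4%) were 4-fold or more higher in platypus and 2764 (61.2%) lay within 4-fold. The log2 fold of dog over platypus had a median of -0.03, with quartiles of -1.54 and 1.58. Differences past 16-fold numbered 188 towards dog and 182 towards platypus, and differences past 100-fold numbered 7 and 16. The shares of 20.4% and 18.4% are the ones against which the counts in each gene list are set. Across members the Spearman correlation of the dog and platypus levels was 0.311, a description across genes that share these libraries.

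**Figure D1:**
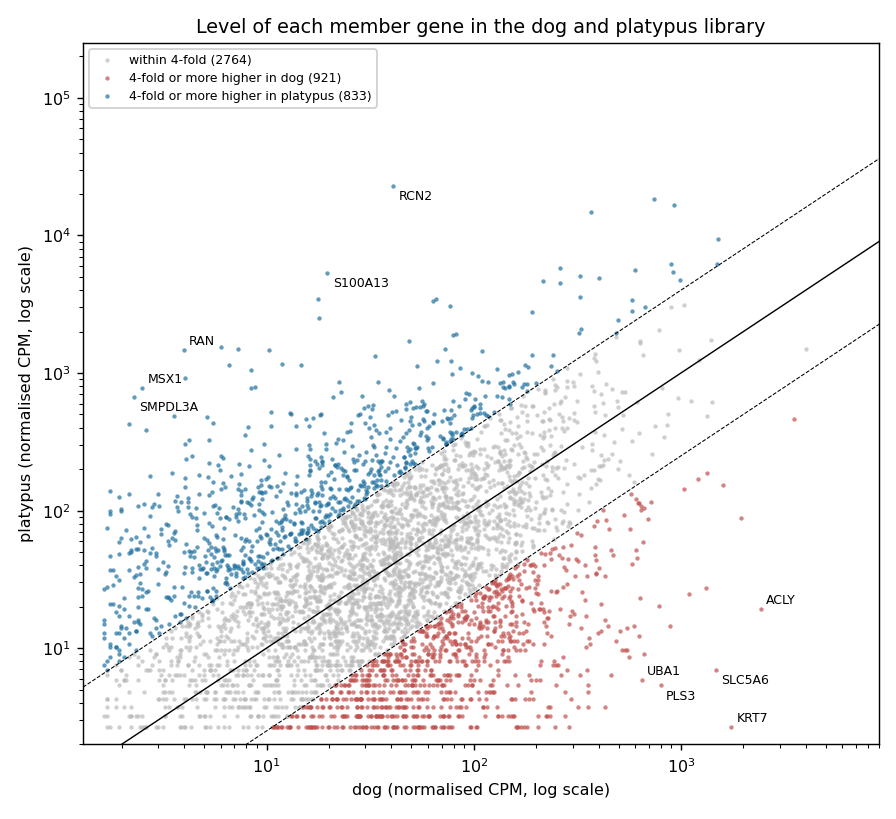
Normalised CPM of each of the 4518 members in the dog library (horizontal, log scale) and the platypus library (vertical, log scale). The solid line marks equal levels and the dashed lines 4-fold; the red points (921) and blue points (833) lie past it, with KRT7 at the lower right (largest fold towards dog) and RCN2 at the top (largest fold towards platypus).

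How the members were counted bears on these numbers. A single read equals 0.0585 normalised CPM in dog and 0.535 in platypus, and members had a median of 627.5 reads in dog and 59 in platypus. The 921 genes higher in dog had a median of 14 reads in platypus, and 577 of them had fewer than 20, whereas those higher in platypus had a median of 221 reads in dog. The division of calls moved with the scaling: 52.5% of all calls were higher in dog as given, 69.7% when only library totals were used and 74.5% when totals over the members were used, with the median log2 fold at 0.56 and 0.76. Stricter floors moved it the other way: the share higher in dog was 36.5% at 10 CPM in both libraries (298 in dog and 519 in platypus) and 29.5% with 20 reads in both (344 and 821, median -0.59), the last a step chosen after the data were seen. Of the matched genes that are not members, 2046 fell short in platypus only, 616 in dog only and 1846 in both. At the limit in platypus, KRT7, SUPT5H and FAM38A entered with 5 reads each, while ABCF1 (5665 dog reads), OXCT1 (4084) and EPHA1 (3233) stayed out with 4.

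Folds also moved with the length of the dog gene model, which the dog table allows to be worked out; lengths in platypus were not used here. In the shortest models, from 168 to 919 bases, 11.6% of members were higher in dog and 28% in platypus, with a median log2 fold of -0.87. In the longest, from 2766 to 26341 bases, 32.0% were higher in dog and 9.62% in platypus, with a median of 0.87. Length thus moves with the direction of a fold, and its part in the folds below was not tested. Medians with this trend removed, a step chosen after the data were seen, are given below for some lists only. In all, 20 of the 101 list medians moved by more than 1.5-fold, and not all of these are given. A list without a second median may thus have moved as well.

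**Figure D2:**
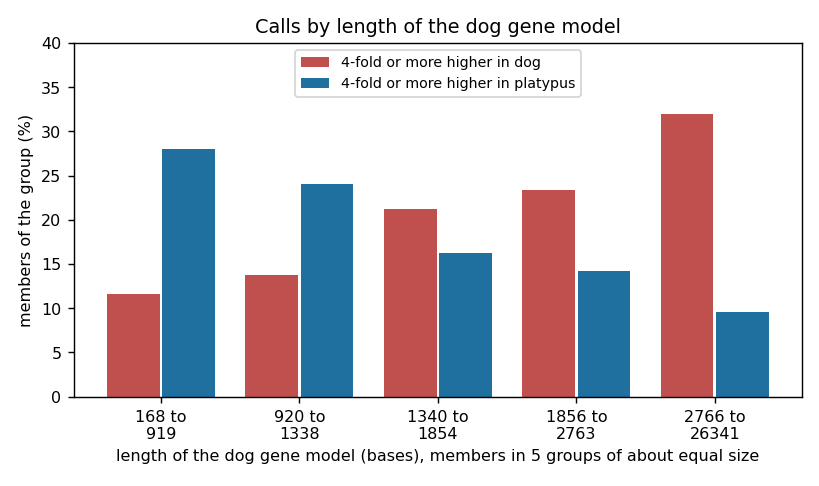
Share of members (percent) that were 4-fold or more higher in dog (red) or in platypus (blue), in 5 groups of about equal size by the length of the dog gene model in bases. The share higher in dog goes from 11.6% to 32.0% and the share higher in platypus from 28% to 9.62%.

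Subunits of one protein complex, which are needed together, were spread about as widely as the members at large. The standard deviation of the log2 fold was 2.91 over 19 proteasome subunits, 2.15 over 21 cytosolic ribosomal proteins, 1.90 over 33 mitochondrial ribosomal proteins and 2.34 over 11 subunits of the initiation factor eIF3, against 2.32 over all members. The proteasome ran from PSMD2, at 5.36, to PSMC6, at -7.63, and eIF3 from EIF3A, at 1.48, to EIF3L, at -6.61. The 5 subunits of the COPI vesicle coat lay closer, with a standard deviation of 0.565. These sets were taken by symbol pattern, so not every gene in them need be a core subunit. The ribosomal set also holds RPL7L1 (0.54), RPL22L1 (0.30) and RPS27L (-1.76), which are named as relatives of subunits. A large fold of a single subunit was thus common in these libraries. Whether the gene models hold the same part of each transcript in both species was not tested. One large fold rested on a divided entry: RAN, the GTPase of nuclear transport, was 368-fold (289 to 475) higher in platypus with 68 reads under its symbol in dog, where a second gene named RAN_CANFA held 6654.

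**Figure D3:**
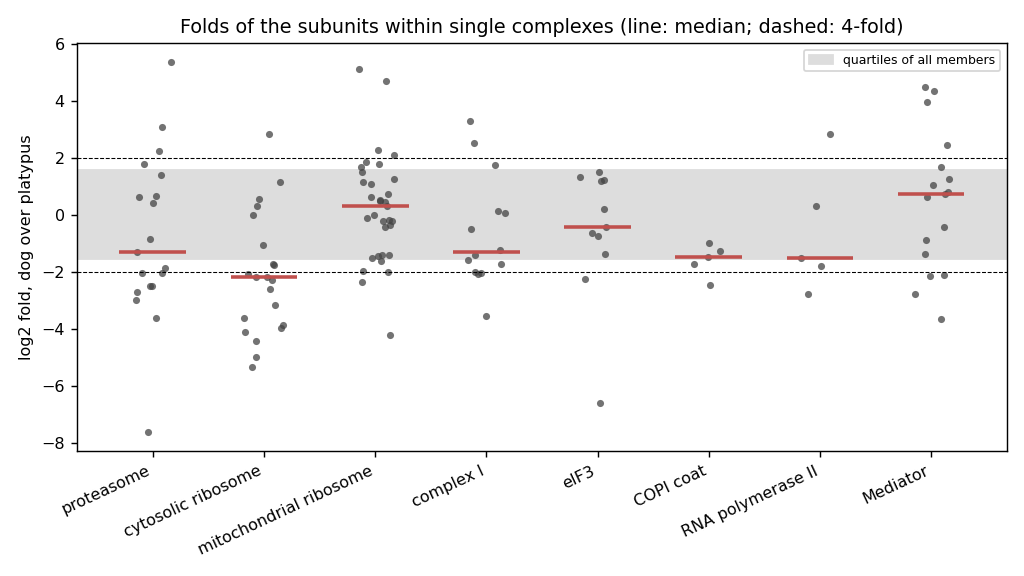
Log2 fold of dog over platypus (vertical) for each member subunit (points) of 8 protein complexes, with the median of each as a red line, 4-fold as dashed lines and the quartiles of all members as a grey band. Proteasome subunits run from 5.36 to -7.63, and the COPI coat stays between -1.0 and -2.48.

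Cell type markers placed the 2 libraries apart in epithelium and muscle, and by summed level in motile cilia, which are described with the cilia genes below. KRT7, a keratin of simple epithelia (ENSCAFG00000007322 in dog and ENSOANG00000012629 in platypus), stood at 1742 normalised CPM (29770 reads) in dog and 2.67 (5 reads) in platypus, the largest fold of all members towards dog at 651-fold (279 to 2006). CLDN4, a claudin of tight junctions, stood at 163 normalised CPM (2793 reads) in dog and 2.67 (5 reads) in platypus, and the cadherin gene CDH3 and the epithelial factor GRHL2 were 13.6-fold (9.58 to 20.1) and 7.17-fold (4.52 to 12.1) higher in dog. In all, 4 of 8 epithelial members were higher in dog and 1 in platypus, with a median log2 fold of 2.13 (1.44 with the length trend removed). That exception was OVOL2, a zinc finger factor of epithelial identity, at 21.2 normalised CPM (362 reads) in dog and 169.6 (317 reads) in platypus. DSP, the desmosome protein desmoplakin (3990.3 in dog and 1484 in platypus), ESRP1, an epithelial splicing regulator (46.8 against 27.8), and AP1M2, a sorting adaptor of polarised cells (168 against 289), lay within 4-fold.

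Several defining epithelial genes are not members because platypus held almost no reads of them. EPCAM had 2288 reads in dog and 1 in platypus, and ST14, SPINT1, ESRP2 and ELF3 had between 1095 and 2563 reads in dog and were at 0 in platypus. By counting error alone, 0 allows up to 3 reads or 1.60 normalised CPM. Such zeros were common: of matched genes that reached 2 CPM in dog, 4518 reached it in platypus and 2046 did not. Of the latter 1372 had 0 reads in platypus. Whether the platypus gene models of these markers take up their reads was not tested. KRT5, a keratin of basal epithelial cells, had 0 reads in dog and 3 in platypus. Summed over the matched epithelial markers, the level was 6993 in dog and 2005 in platypus. The label of both libraries is endometrium. Most of the platypus sum was DSP, at 1484, and 4 of the 14 matched markers were at 0 there and 1 in dog.

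Contractile genes mostly lay the other way. MYL9, the regulatory light chain of smooth muscle myosin, stood at 17.7 normalised CPM (302 reads) in dog and 3435 (6421 reads) in platypus, a difference of 194-fold (173 to 219). TPM2, a tropomyosin, was 78.3-fold (68.7 to 89.6) higher in platypus, SYNPO2, an actin-bundling protein of muscle, 8.87-fold and MYLK, the kinase of the light chain, 5.82-fold. SYNM, an intermediate filament protein of muscle, was 5.94-fold (3.97 to 9.3) higher in dog, and the filamin FLNA was within 4-fold (749 in dog and 413 in platypus). Among the 7 members 4 were higher in platypus and 1 in dog, with a median of -2.54 (-3.67 with the length trend removed). Of the other matched markers, which are not members, CNN1 (3 reads in dog and 2576 in platypus) and MYH11 (22 and 621) were higher in platypus, whereas CSRP1 (1657 and 0) and PDLIM3 (48 and 2) had more reads in dog; MYOCD had 2 and 0. The summed level of matched markers was 1059 in dog and 7126 in platypus. The part of muscle content in the other folds was not tested.

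Stromal, vessel and immune markers gave few members. The matrix genes SPARC and LUM were 22.2-fold (21.5 to 23) and 20.6-fold (19.3 to 22) higher in platypus, COL3A1, the fibrillar collagen III, was level (427 in dog and 353 in platypus), and FBLN1, fibulin 1, stood at 205 normalised CPM (3505 reads) in dog and 3.21 (6 reads) in platypus. CDH5, the cadherin of endothelium, was at 24.8 in dog and 24.1 in platypus and was the single member of 9 matched endothelial markers. PLVAP, an endothelial diaphragm protein, had 910 reads in dog and 0 in platypus. TIE1 (1665 and 1), MMRN2 (807 and 3), ROBO4 (286 and 3), ESAM (141 and 0) and ERG (59 and 0) also had more reads in dog. CLDN5 (4 and 38) and PROX1 (0 and 4) had more in platypus. For leukocytes LCP1, an actin bundler of blood cells, was the single member, 10.5-fold (4.8 to 28.7) higher in dog. Of 10 matched plasma cell markers 3 were members and these were higher in platypus: the immunoglobulin heavy chain IGHM, the ER degradation protein DERL3 and the secretory factor XBP1 (110.0 in dog and 880.5 in platypus, 8.01-fold (7.49 to 8.56)). IGJ, the joining chain of secreted antibody, PIGR, its epithelial receptor, and SDC1, a syndecan of plasma cells and epithelia, were at 0 in platypus. PRDM1 had 503 reads in dog and 2 in platypus, and POU2AF1 had 3 and 6. Red blood cell and ovarian steroid cell markers gave no members, and for trophoblast KRT7, also an epithelial marker, was the single member of 12 matched. Trophoblast markers short of the limit included TEAD4 (366 reads in dog and 0 in platypus), PGF (286 and 1), GATA3 (221 and 2) and TFAP2A (60 and 0), with HAND1 at 21 and 26. The other matched markers had few reads in dog: TFAP2C 29, PAPPA2 19, PLAC8 4, CDX2 2, ELF5 1 and EOMES 0. In platypus EOMES had 2 reads and the rest of these 0. The sum over the 12 matched markers was 1801 normalised CPM in dog and 19.3 in platypus, of which KRT7 alone was 1742 in dog. The part of trophoblast in the epithelial folds was not tested.

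The list with the most genes higher in platypus was that of protein folding in the ER. Of the 35 members among 46 matched genes of folding and disulfide formation, 18 were 4-fold or more higher in platypus, against 18.4% of all members, and 5 in dog, with a median log2 fold of -2.28 (-1.92 with the length trend removed). RCN2, a calcium-binding protein of the ER (ENSCAFG00000018077 in dog and ENSOANG00000002100 in platypus), stood at 40.7 normalised CPM (696 reads) in dog and 23040.1 (43072 reads) in platypus, the largest fold towards platypus at 566-fold (525 to 611). AGR2, a disulfide isomerase of mucus-secreting epithelia, stood at 6.03 normalised CPM (103 reads) in dog and 1539.5 (2878 reads) in platypus. The disulfide isomerases PDIA3 (744 against 18404, dog first), PDIA4 (925 against 16584) and PDIA6 (368 against 14904) were 24.7-fold, 17.9-fold and 40.5-fold higher in platypus. TMX4, a membrane thioredoxin, was 145-fold (107 to 201) higher there and PRDX4, the peroxiredoxin of the ER, 52.8-fold (49.5 to 56.3).

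The chaperones showed smaller differences in the same direction. HSPA5, the main ER chaperone (BiP), stood at 916 normalised CPM (15655 reads) in dog and 5389.9 (10076 reads) in platypus, a difference of 5.88-fold (5.74 to 6.03). CALR, the lectin chaperone calreticulin, was 6.98-fold (6.82 to 7.15) higher in platypus and PPIB, the ER cyclophilin, 9.33-fold (9.08 to 9.59). SERPINH1, the collagen chaperone, lay within 4-fold at 247 in dog and 755 in platypus. Enzymes of collagen hydroxylation did not lean to platypus: P4HB, the beta subunit of prolyl hydroxylase and itself a disulfide isomerase, stood at 1320.3 normalised CPM (22561 reads) in dog and 27.3 (51 reads) in platypus, 48.4-fold (36.8 to 65) higher in dog, P4HA2 was 4.81-fold higher in dog and P4HA1 and PLOD1 were within 4-fold. UGGT1, the sensor of misfolded glycoproteins, and FKBP9, a prolyl isomerase, were 7.16-fold and 18.7-fold higher in dog, and QSOX1, a sulfhydryl oxidase, was the remaining gene on that side, at 34 in dog and 7.49 in platypus. The matched plasma cell markers, whose cells are rich in ER, summed to 257 normalised CPM in dog and 3409 in platypus. Most of the platypus sum was IGHM (1473), DERL3 (1051) and XBP1 (880.5), of which DERL3 and XBP1 are also in the list of the unfolded protein response. SDC1 (1288 reads in dog and 0 in platypus), PRDM1 (503 and 2), PIGR (331 and 0) and IGJ (67 and 0) had more reads in dog. The part of plasma cells in the ER folds was not tested.

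**Figure D4:**
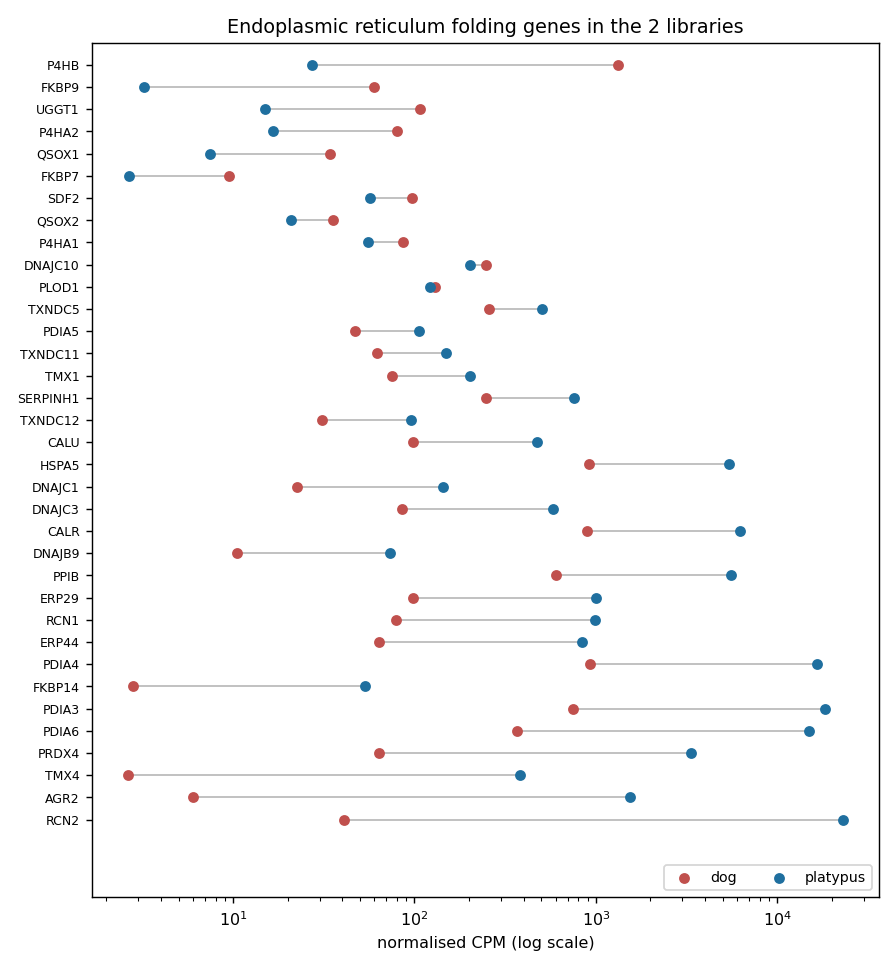
Normalised CPM (log scale) of the 35 members of the list of ER folding and disulfide formation in the dog library (red) and the platypus library (blue), ordered by fold from P4HB (top, 48.4-fold higher in dog) to RCN2 (bottom, 566-fold higher in platypus). The blue point lies to the right by 4-fold or more in 18 genes and the red point in 5.

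Neighbouring steps of the secretory pathway lay towards platypus as well, less far. For protein entry and glycan transfer 6 of 18 members were higher in platypus and 2 in dog (median -1.26). SSR3 and SSR4, subunits of the complex beside the translocation channel, stood at 33.5 in dog and 1327 in platypus and at 325 in dog and 3596 in platypus, while SEC63, an adaptor of that channel, was 4.82-fold (3.79 to 6.23) higher in dog. PRKCSH, the beta subunit of the glucosidase that trims glycans, was 34.1-fold (22.1 to 55.9) higher in dog. In the unfolded protein response and ER-associated degradation 10 of 25 were higher in platypus and 4 in dog (median -1.43). DERL3, a degradation channel protein, stood at 8.37 normalised CPM (143 reads) in dog and 1051 (1964 reads) in platypus, EDEM3, a mannosidase that marks misfolded glycoproteins, was 16.4-fold (14.9 to 18) higher in platypus and UBE2J2, a ubiquitin-conjugating enzyme of the ER, 15.2-fold. PPP1R15B, a regulatory subunit of the eIF2-alpha phosphatase, was 32.4-fold (19.3 to 59.2) higher in dog, as were the transcription factor CREB3 (16-fold) and the asparagine synthetase ASNS (8.84-fold).

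Vesicle transport followed. Of 28 members of the COPI and COPII coats 11 were higher in platypus and 5 in dog (median -1.13): the coat proteins SEC13 (109.8 in dog and 1453 in platypus) and SEC23A (79.8 against 628) and the GTPase SAR1A (52.9 against 568) were 13.2-fold, 7.87-fold and 10.7-fold higher in platypus. SEC16A, which marks the ER exit sites, PREB, the exchange factor of SAR1, and the fusion protein STX5 were 5.39-fold, 6.86-fold and 17.6-fold higher in dog. Cargo receptors of the p24 family had a median of -1.78 over 6 members, with TMED2 at 191 in dog and 1352 in platypus and TMED6 at 5.27 in dog and 58.3 in platypus the pair past 4-fold. LMAN1, the lectin that carries glycoproteins out of the ER, was 7.37-fold (6.9 to 7.87) higher in platypus. RAB GTPases, which direct vesicles, had 6 of 12 members higher in platypus and 2 in dog; their median of -2.01 became -1.07 with the length trend removed. RAB27B and RAB3A, which act in regulated secretion, were 26.6-fold (19.9 to 35.9) and 9.64-fold (7.75 to 12) higher in platypus, and RAB32, of lysosome-related organelles, 7.92-fold (4.4 to 15.9) higher in dog.

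Glycosyltransferases, which build the sugar chains of mucins and other secreted proteins, were split: 8 of 23 members were higher in dog and 6 in platypus. B3GNT7, an enzyme of keratan sulfate chains, stood at 181 normalised CPM (3095 reads) in dog and 2.67 (5 reads) in platypus, and ST6GAL1, which adds terminal sialic acid, was 14.1-fold (8.35 to 25.8) higher in dog. GALNT12 and GALNT2, which start mucin-type chains, were 17-fold (15.1 to 19.1) and 7.21-fold (5.84 to 8.89) higher in platypus, and ST6GALNAC2, which sialylates such chains, 24.9-fold (19.5 to 31.9). In the lysosome 12 of 16 enzymes and membrane proteins lay within 4-fold. CTSZ, the protease cathepsin Z, stood at 3507 normalised CPM (59932 reads) in dog and 466 (871 reads) in platypus, 7.53-fold (7.04 to 8.06) higher in dog, and SMPDL3A, a secreted sphingomyelinase-like enzyme, at 2.28 normalised CPM (39 reads) in dog and 669 (1250 reads) in platypus, 293-fold (213 to 414) higher in platypus. SNX5, a sorting nexin of endosomes, was 30.5-fold (16.6 to 63.7) higher in dog and VPS36, of the ESCRT machinery, 18.4-fold (17.1 to 19.8) higher in platypus.

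Genes of protein synthesis differed by class. Of the 21 members with cytosolic ribosomal protein symbols 13 were higher in platypus, among them RPS13 (76.8 in dog and 3089.7 in platypus), RPS19 (216 against 4673) and RPL36 (259.6 against 4485). RPS16 was 7.14-fold (6.43 to 7.96) higher in dog. The median of the 21 genes was -2.19, and -1.45 with the length trend removed. These are short genes with many processed copies in mammalian genomes, and how reads that map to several copies were treated is not given in the sources used here, so their folds are uncertain. The aminoacyl-tRNA synthetases, which load amino acids onto tRNA, lay towards dog: 8 of 18 were higher there and 1 in platypus (median 1.54). The isoleucine enzyme IARS stood at 350.0 normalised CPM (5981 reads) in dog and 6.95 (13 reads) in platypus and the lysine enzyme KARS at 409 normalised CPM (6992 reads) in dog and 13.4 (25 reads) in platypus, or 50.3-fold (29.4 to 94.6) and 30.6-fold (20.7 to 47.3) higher in dog. SARS, the serine enzyme, was 5.49-fold (5.14 to 5.86) higher in platypus.

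Translation factors were mostly level, with 29 of 40 within 4-fold. EIF4B and EIF2S1, of initiation, and EEF1D, of elongation, were 13-fold (9.82 to 17.7), 10.4-fold (7.2 to 15.5) and 13.5-fold (10.9 to 16.9) higher in dog. EIF3L stood at 11.9 normalised CPM (203 reads) in dog and 1159 (2167 reads) in platypus, 97.6-fold (84.5 to 113) higher in platypus, and EIF4G2, an initiation factor that acts without the cap-binding protein, was 4.81-fold higher there. Of the mitochondrial ribosomal proteins 26 of 33 lay within 4-fold (median 0.32).

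Protein turnover was mixed and its conjugating enzymes lay towards platypus. None of 14 ubiquitin-conjugating enzymes was 4-fold higher in dog and 7 were higher in platypus (median -2.03), led by UBE2A at 16.1 in dog and 412 in platypus and UBE2G1 at 21.5 in dog and 216 in platypus. UBA1, the activating enzyme that supplies them, stood at 645 normalised CPM (11021 reads) in dog and 5.88 (11 reads) in platypus, 109.6-fold (61.2 to 219.6) higher in dog. Proteasome genes counted 8 higher in platypus and 3 in dog of 23: the base ATPase PSMC6 stood at 2.17 normalised CPM (37 reads) in dog and 428 (801 reads) in platypus, and the base scaffold PSMD2 at 594 normalised CPM (10144 reads) in dog and 14.4 (27 reads) in platypus. Cullins and their adaptors were divided evenly, 8 and 8 of 41, shares close to those of all members, with CUL4A 5.46-fold higher in dog and CUL3 6.54-fold higher in platypus. DNAJ co-chaperones had 8 of 18 higher in platypus and 0 in dog (median -1.12), with DNAJA4 at 17.9 normalised CPM (306 reads) in dog and 2493 (4661 reads) in platypus. Of 14 autophagy genes 4 were higher in platypus, including the ATG12 partner ATG5 (5.15-fold), and 2 in dog, including the scaffold RB1CC1 (13.9-fold).

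Genes of cell division lay towards dog. Of 13 mitosis members 6 were higher in dog and 0 in platypus (median 1.78), including the condensin subunit NCAPD2 (294 normalised CPM (5018 reads) in dog and 4.28 (8 reads) in platypus), INCENP of the chromosomal passenger complex (19.2-fold (12.8 to 30.3)) and FOXM1, a transcription factor of dividing cells (21.1-fold (9.03 to 65.2)). Kinesins, motors that move along microtubules, had 9 of 18 higher in dog and 0 in platypus, with a median of 2.25 that was 1.61 with the length trend removed. KIF2A, which takes microtubules apart, stood at 155 normalised CPM (2649 reads) in dog and 3.21 (6 reads) in platypus, the chromosome motor KIF22 was 20.4-fold (11.7 to 39.5) higher, and KIFC3 and KIF1C, which move cargo outside of mitosis, were 22.8-fold and 17.5-fold higher. All 18 kinesin members had a log2 fold above 0, and 10 of them had fewer than 20 reads in platypus.

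In DNA replication 6 of 18 members were higher in dog and 2 in platypus (median 1.25). E2F8, a factor of S phase, stood at 224 normalised CPM (3828 reads) in dog and 3.21 (6 reads) in platypus, the licensing factor CDT1 was 12.2-fold (7.25 to 22.4) higher in dog, while RFC3, a clamp loader subunit, was 12.6-fold (11.5 to 13.9) higher in platypus. DNA repair had 7 of 20 higher in dog, among them the damage scaffold TP53BP1 (26.4-fold (12.1 to 72)), the mismatch protein MSH6 (13.1-fold (8.03 to 22.9)) and XRCC1 of single-strand break repair (13.6-fold). DDB2, which recognises ultraviolet damage, stood at 6.03 normalised CPM (103 reads) in dog and 249 (465 reads) in platypus, 41.3-fold (33.3 to 51.6) higher in platypus. Purine and pyrimidine enzymes had 6 of 22 higher in dog and 1 in platypus: CAD, which starts pyrimidine synthesis, stood at 642 normalised CPM (10978 reads) in dog and 102 (190 reads) in platypus, PFAS of purine synthesis was 9.74-fold (7.42 to 13.1) higher in dog and the kinase CMPK1 10.2-fold (9.26 to 11.3) higher in platypus.

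Genes of RNA handling had shares higher in dog near or somewhat above that of all members, except nucleoporins and importins at 40%. Of 24 helicases of the DDX and DHX families 6 (25%, against 20.4% of all members) were higher in dog and 0 in platypus. They were led by DDX27 and DHX37 of ribosome assembly at 37-fold (18.8 to 85.9) and 16-fold (11.5 to 23). The median of 1.15 was 0.62 with the length trend removed. POLR1B and POLR1C, subunits of the polymerase that transcribes ribosomal RNA, stood at 152 normalised CPM (2599 reads) in dog and 3.21 (6 reads) in platypus and 86.4 normalised CPM (1476 reads) in dog and 3.74 (7 reads) in platypus. In the polymerase and Mediator list as a whole 10 of 35 were higher in dog and 5 in platypus. SUPT5H, an elongation factor of RNA polymerase II, stood at 289 normalised CPM (4936 reads) in dog and 2.67 (5 reads) in platypus, the splicing proteins SRRM2 and SF3B2 were 61.3-fold (42.1 to 93.1) and 30.7-fold (21.1 to 46.6) higher in dog, and PTBP1, a splicing repressor, 71.6-fold (41 to 139). In the splicing factor list 4 of 17 members (23.5%) were higher in dog and 1, SNRPD3 (8.85-fold (7.53 to 10.4)), in platypus. With the length trend removed these counts were 2 in dog and 3 in platypus. Of the hnRNP genes 6 of 7 lay within 4-fold. Nucleoporins and importins counted 8 higher in dog and 1 in platypus of 20: NUP205 was 39.1-fold (20.6 to 85.7) higher in dog and the export receptor XPO1 4.27-fold (4.02 to 4.53) higher in platypus. With the length trend removed the counts of this list were 4 in dog and 3 in platypus, and its median went from 0.49 to -0.15.

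Chromatin genes included 6 of 22 lysine demethylases and methyltransferases higher in dog and 1 in platypus. DOT1L, the methyltransferase of histone H3 within its core, was 11.6-fold (7.83 to 17.9) higher in dog and KDM1A, a demethylase, 6.19-fold (5.84 to 6.57) higher in platypus. The list's median of 1.17 fell to 0.32 with the length trend removed; these are long genes. Among remodellers SMARCC1 was 9.63-fold higher in dog, and SMARCD3 and SMARCA1 were 33.5-fold and 17.6-fold higher in platypus.

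Developmental transcription factors included genes higher in either library. MSX1, a homeobox factor of the uterine epithelium in the receptive phase in mice, stood at 2.52 normalised CPM (43 reads) in dog and 772 (1443 reads) in platypus, a difference of 307-fold (227 to 426). It was 1 of 2 higher in platypus among 9 homeobox members outside the HOX clusters, 22.2% against 18.4% of all members. None of 8 HOX members was 4-fold higher in dog and 3 were higher in platypus (median -1.67): HOXB8 at 6.38 in dog and 89.9 in platypus, HOXB7 at 12.5 in dog and 86.1 in platypus and HOXB5 at 2.98 in dog and 29.4 in platypus. Their levels were low in dog, and 14 of the 22 matched HOX genes are not members. The SOX, FOX, GATA, KLF and SP factors counted 3 towards dog and 2 towards platypus of 13. These shares of 23.1% and 15.4% were near the 20.4% and 18.4% of all members. Their median of 1.12, with 9 above 0, was 0.69 with the length trend removed. KLF factors went both ways, with KLF5, of proliferating epithelia, at 345 normalised CPM (5900 reads) in dog and 22.5 (42 reads) in platypus and KLF15, a metabolic regulator, at 2.75 normalised CPM (47 reads) in dog and 91.5 (171 reads) in platypus.

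Hormone receptors and their partners had 5 of 14 members higher in platypus and 1 in dog. ESR1, the oestrogen receptor alpha, stood at 6.55 normalised CPM (112 reads) in dog and 1147 (2145 reads) in platypus, 175-fold (145 to 214) higher in platypus. The retinoic acid receptor RARB, the orphan receptor NR2F6 and the progesterone receptor membrane component PGRMC2 were 7.57-fold, 4.53-fold and 4.57-fold higher in platypus. FKBP5, a co-chaperone of steroid receptors induced by progesterone and glucocorticoid, was 14.5-fold (6.62 to 39.6) higher in dog, while its relative FKBP4 stood at 984 in dog and 1470.5 in platypus. Of 7 decidual and progesterone targets BMP2 (2.34 in dog and 64.2 in platypus), FST, the activin inhibitor follistatin (7.72 against 35.8), and DIO2, which activates thyroid hormone (2.81 against 106), were higher in platypus, KLF5 (345 against 22.5) was 15.4-fold (11.4 to 21.3) higher in dog, and FOXO1, WNT4 and STC1 differed by less than 1.5-fold; the list's median was 0.05. In hormone conversion CRYM, a thyroid hormone binding protein, was 15.2-fold (12.8 to 18.2) higher in platypus, HSD17B10, a mitochondrial dehydrogenase, 6.76-fold (4.87 to 9.68) higher in dog, and the retinoic acid enzymes ALDH1A2 and ALDH1A3 lay in opposite directions, 4.24-fold higher in dog and 12.2-fold higher in platypus.

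Signalling pathways differed in direction. In the TGF-beta, activin and BMP pathway 6 of 21 members were higher in platypus and 0 in dog: LTBP4, which stores latent TGF-beta in the matrix, stood at 4.21 normalised CPM (72 reads) in dog and 325 (607 reads) in platypus, the decoy receptor BAMBI was 22.1-fold (15.2 to 32.6) higher, the receptor ACVR1 9.86-fold (8.85 to 11) and the mediator SMAD3 4.14-fold. In the Notch pathway 5 of 11 were higher in dog and 0 in platypus (median 1.98). The receptor NOTCH1 stood at 75.1 normalised CPM (1284 reads) in dog and 2.67 (5 reads) in platypus and the nuclear partner RBPJ at 72 normalised CPM (1231 reads) in dog and 6.42 (12 reads) in platypus, with the coactivators MAML1 and MAML2 at 7.64-fold and 9.85-fold and the ligand JAG2 at 5.33-fold. The receptor NOTCH3 (54.2 in dog and 61 in platypus) and the ligands JAG1 and DLL1 lay within 4-fold. Of the 11 Notch members 7 had fewer than 20 reads in platypus.

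The WNT list of 25 members had 7 higher in platypus and 2 in dog. The receptors FZD5 and FZD3, the R-spondin receptor LGR4 and the co-receptor antagonist KREMEN1 were 43.2-fold, 10.9-fold, 12.8-fold and 12.5-fold higher in platypus. CTNNB1, beta-catenin, stood at 582 normalised CPM (9949 reads) in dog and 3396 (6349 reads) in platypus, 5.83-fold (5.65 to 6.02) higher there. SFRP4, a secreted WNT inhibitor, was 35.4-fold (17.9 to 82.1) higher in dog and DVL3, which relays the signal, 24.5-fold (14 to 47.6). GPR177, which escorts WNT ligands to the surface (also called WLS), stood at 546 normalised CPM (9338 reads) in dog and 13.9 (26 reads) in platypus. The Hedgehog receptor components CDON and SMO were 38.5-fold (30.1 to 49.7) and 8.51-fold (7.44 to 9.74) higher in platypus.

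Growth factor genes were few. IGFBP7 stood at 432 normalised CPM (7386 reads) in dog and 16 (30 reads) in platypus, 26.9-fold (18.9 to 39.95) higher in dog, whereas IGFBP4 and IGFBP3, which bind insulin-like growth factors, were 11.4-fold (10.2 to 12.7) and 7.37-fold (5.41 to 10.01) higher in platypus. FGFR1, a fibroblast growth factor receptor, was 11.4-fold (9.92 to 13.2) higher in platypus and SPRED2, an inhibitor of the pathway beneath it, 26.5-fold (11.3 to 81.8) higher in dog. NRP2, a co-receptor of vascular growth factors and semaphorins, stood at 263 normalised CPM (4488 reads) in dog and 6.42 (12 reads) in platypus. In the JAK-STAT list 3 of 7 members were higher in dog: the oncostatin M receptor OSMR, the kinase JAK2 and the regulator PIAS1. Their folds were 11.1-fold (5.06 to 30.3), 5.91-fold (3.96 to 9.26) and 5.8-fold (3.13 to 12.2), on 6, 24 and 10 reads in platypus. The list's median of 1.57 became -1.03 at 5 CPM in both libraries, so the list had no settled direction. G proteins lay towards platypus, 6 of 12 higher there (median -1.88), with GNAI3 at 79 normalised CPM (1350 reads) in dog and 1888 (3530 reads) in platypus and the regulator RGS2 31.2-fold (26.2 to 37.3) higher. GNAS, the stimulatory alpha subunit, stood at 1597 normalised CPM (27291 reads) in dog and 154 (287 reads) in platypus, 10.4-fold (9.26 to 11.7) higher in dog.

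Intracellular kinases and phosphatases were divided. MAPK3, the kinase ERK1, was 20.6-fold (15.6 to 27.4) higher in platypus and MAP4K4 6.46-fold (4.78 to 8.95) higher in dog. The receptor phosphatase PTPRF stood at 484 normalised CPM (8270 reads) in dog and 11.2 (21 reads) in platypus, and its relatives PTPRB and PTPN6 were 23.7-fold (21.3 to 26.3) and 13.5-fold (11.6 to 15.7) higher in platypus. MTOR, the kinase of nutrient signalling, was 9.24-fold (7.19 to 12.1) higher in dog and RRAGD, a GTPase that recruits it to lysosomes, 50.3-fold (34.7 to 74.8) higher in platypus. Of 8 members for apoptosis and p53 4 were higher in dog, among them RIPK1 (16.8-fold), CASP2 (19.5-fold) and CASP6 (4.77-fold), and GADD45B was 7.57-fold higher in platypus.

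Lipid and sterol synthesis included large folds towards dog, while the median of the lipid synthesis list was 0.19 (0.67 with the length trend removed). ACLY, which makes cytosolic acetyl-CoA, stood at 2426 normalised CPM (41453 reads) in dog and 19.3 (36 reads) in platypus, 126-fold (91 to 179.9) higher in dog. ACACA and SCD, which begin fatty acid synthesis and desaturate its products, were 13.3-fold (9.02 to 20.6) and 7.97-fold (6.83 to 9.36) higher there, and FABP3, a fatty acid carrier, 35.7-fold (15.3 to 110.1). Of 29 lipid synthesis members 8 were higher in dog and 4 in platypus, the latter including AGPAT3, which makes phosphatidic acid (44.1-fold (29.4 to 68.3)), and the ceramide enzyme DEGS1 (19.2-fold (16.8 to 21.9)). Those shares were 27.6% and 13.8%, against 20.4% and 18.4% of all members. Of 22 cholesterol members 7 (31.8%) were higher in dog and 3 (13.6%) in platypus, with a median of 0.92 (0.50 with the length trend removed). SREBF2, the master regulator of cholesterol synthesis, stood at 1098 normalised CPM (18761 reads) in dog and 24.6 (46 reads) in platypus, SQLE, squalene epoxidase, at 324 normalised CPM (5539 reads) in dog and 6.42 (12 reads) in platypus, and the lipoprotein receptor SCARB1 was 27-fold (11.5 to 83.2) higher in dog. SC4MOL, a sterol oxidase of the same route, was 6.74-fold (4.48 to 10.1) higher in platypus.

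Sugar metabolism differed at its regulators. PDK1, which inhibits pyruvate dehydrogenase, stood at 22.4 normalised CPM (382 reads) in dog and 859.6 (1607 reads) in platypus, and PFKFB4 and PFKFB3, which set the level of an activator of glycolysis, were 39.1-fold (33.2 to 46.2) and 27.9-fold (21.6 to 36.3) higher in platypus. HK1, which phosphorylates glucose, and TKT, of the pentose phosphate path, were 5.46-fold (4.77 to 6.29) and 5.57-fold (4.86 to 6.42) higher in dog. Otherwise 13 of 19 members of glycolysis and glycogen lay within 4-fold, with a median of -1.25. In the citrate cycle GOT2 and MDH1, of the malate-aspartate shuttle, were 17.9-fold (16.1 to 19.8) and 6.0-fold (5.68 to 6.35) higher in platypus and DLAT, of pyruvate dehydrogenase, 9.38-fold (6.34 to 14.5) higher in dog. Complex I of the respiratory chain had a median of -1.22, which was -0.38 with the length trend removed, and 11 of 17 members lay within 4-fold.

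Amino acid enzymes were split, 6 higher in dog and 5 in platypus of 23. PSAT1, of serine synthesis, stood at 203 normalised CPM (3474 reads) in dog and 2.67 (5 reads) in platypus, and SAT1, which breaks down polyamines, was 17.9-fold (10.8 to 32) higher in dog. ODC1 and AMD1, which make polyamines, were 8.33-fold (7.84 to 8.85) and 11.1-fold (10.2 to 12.1) higher in platypus. For oxidative defence NFE2L2, the transcription factor NRF2, was 8.49-fold (5.48 to 13.9) higher in dog, and GPX7, a peroxidase of the ER, and TXNRD3, a thioredoxin reductase, were 12.2-fold (10.5 to 14.2) and 39-fold (31.5 to 48.7) higher in platypus.

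Carriers across membranes included some of the largest folds towards dog. SLC5A6, the transporter of biotin and pantothenate, stood at 1468 normalised CPM (25088 reads) in dog and 6.95 (13 reads) in platypus, 211-fold (123 to 397) higher in dog. The glucose transporter SLC2A1 stood at 627 normalised CPM (10717 reads) in dog and 12.3 (23 reads) in platypus, and SLC2A13, a carrier of myo-inositol, at 1.99 normalised CPM (34 reads) in dog and 103 (193 reads) in platypus, so that the pair differed in opposite directions. Of amino acid carriers 4 of 12 were higher in dog and 2 in platypus: the neutral amino acid carriers SLC1A4 (86-fold (39.5 to 234)) and SLC1A5 (6.58-fold (5.08 to 8.68)) on one side and SLC6A11, which carries GABA, at 1.93 normalised CPM (33 reads) in dog and 125 (234 reads) in platypus on the other. The copper carriers SLC31A1 and SLC31A2 were 6.95-fold and 10.3-fold higher in platypus, and the folate carrier SLC46A1 10.4-fold higher in dog. For calcium, STIM1 and STIM2, the sensors of ER calcium stores, were 9.46-fold (8.18 to 10.9) and 24.7-fold (22.5 to 27.2) higher in platypus and ITPR3, which releases that store, 20.4-fold (14.5 to 29.9) higher in dog. CA2, the carbonic anhydrase linked to shell formation in birds, stood at 5.27 normalised CPM (90 reads) in dog and 130.0 (243 reads) in platypus, 24.7-fold (19.3 to 31.8) higher in platypus.

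Genes of cilia that are members lay partly towards platypus. In intraflagellar transport, which builds cilia, and the Bardet-Biedl proteins 8 of 18 were higher in platypus and 1 in dog, including IFT88 (9.71 normalised CPM (166 reads) in dog and 232 (433 reads) in platypus) and IFT81 (14.5-fold (11.7 to 17.9)). Dyneins, motors of cilia and of cargo, had 4 of 11 higher in platypus (median -1.59): DNAH10, an axonemal heavy chain, stood at 5.97 normalised CPM (102 reads) in dog and 197 (368 reads) in platypus, while DYNC1I1, of the cytoplasmic motor, was 4.66-fold (3.34 to 6.72) higher in dog. Of 21 matched markers of motile cilia 4 were members and none of these reached 4-fold. FOXJ1, the switch of motile cilia, is not a member, with 6 reads in dog and 1118 in platypus. RSPH1 (0 and 346), SPAG6 (0 and 257), DNAI2 (1 and 88), CCDC40 (0 and 63), ENKUR (0 and 47), SPEF2 (16 and 42) and RSPH9 (0 and 31) also fell short in dog. ROPN1L (40 and 0), LRRC6 (33 and 0) and DNAH5 (2 and 0) had reads in dog only. The remaining markers that are not members had 14 reads or fewer in each library. Summed over the 21 matched markers, the level was 54.0 in dog and 1115 in platypus.

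The actin cytoskeleton was divided by gene. PLS3, an actin bundler, stood at 799 normalised CPM (13660 reads) in dog and 5.35 (10 reads) in platypus, 149-fold (81.2 to 312) higher in dog, and talin TLN1 and vinculin VCL, which link actin to adhesion sites, were 7.09-fold (5.82 to 8.72) and 7.81-fold (5.31 to 12) higher there. COTL1, an actin-binding protein, stood at 7.32 normalised CPM (125 reads) in dog and 1488 (2781 reads) in platypus, 203-fold (170.0 to 245) higher in platypus. The non-muscle myosin MYH14 was 30.5-fold (20.1 to 48.8) and the filopodial myosin MYO10 11.1-fold (9.23 to 13.6) higher in dog. IQGAP2, a scaffold of actin and small GTPases, stood at 4.04 normalised CPM (69 reads) in dog and 920.1 (1720 reads) in platypus, 228-fold (179 to 294) higher in platypus.

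Matrix genes differed by family. Of 9 collagens 4 were higher in platypus, namely COL14A1 (14.1-fold (11.5 to 17.3)), COL6A1 (5.7-fold (5.27 to 6.16)), COL18A1 (5.32-fold (4.74 to 5.98)) and COL23A1 (5.0-fold), and 1 in dog, with a list median of -1.44 (-2.45 with the length trend removed). COL5A3 stood at 430.5 normalised CPM (7356 reads) in dog and 3.74 (7 reads) in platypus, 115-fold (55.8 to 286) higher in dog. Of 24 proteoglycans and other matrix proteins 7 were higher in platypus and 3 in dog; FBLN2 was 56.7-fold (38.4 to 86.4) higher in platypus, and FBLN5, which assembles elastic fibres, 18.3-fold (10.2 to 36.7) higher in dog. Among 7 basement membrane proteins 2 were past 4-fold towards dog and 0 towards platypus, and their median of 0.36 became -0.68 with the length trend removed. The laminin LAMB1 stood at 537 normalised CPM (9168 reads) in dog and 9.63 (18 reads) in platypus, 55.7-fold (35.2 to 94.1) higher in dog. None of 9 proteases of the MMP, ADAM and ADAMTS families was 4-fold higher in dog, and 5 were higher in platypus, including ADAMTS2, which trims procollagen (14.3-fold (12.5 to 16.3)), and ADAMTS5, which cuts proteoglycans (11.3-fold (9.68 to 13.2)).

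At the cell surface the same pattern of mixed members held. The fibronectin receptor subunit ITGA5 was 17-fold (8.24 to 42.5) higher in dog and ITGB6, of an epithelial integrin, 6.47-fold (3.88 to 10.7) higher in platypus. Of 8 integrins 2 were higher in dog and 1 in platypus, which became 1 and 2 with the length trend removed. CTNNA1, alpha-catenin, was 11.7-fold (9.54 to 14.4) higher in dog. Its list of cadherins, catenins and desmosome proteins did not lean to dog: 2 of 12 were higher there and 3 in platypus (median -0.18). Semaphorins, plexins and ephrins, which guide cells, had 5 of 16 higher in dog and 1 in platypus, with the receptor PLXNB2 at 1032 normalised CPM (17627 reads) in dog and 143 (267 reads) in platypus and the ligand SEMA4B at 131 normalised CPM (2232 reads) in dog and 3.21 (6 reads) in platypus. Calcium-binding annexins and S100 proteins had 4 of 5 higher in platypus (median -3.16): S100A13, which aids export of growth factors, stood at 19.7 normalised CPM (336 reads) in dog and 5339 (9980 reads) in platypus, and ANXA6 at 65.5 normalised CPM (1120 reads) in dog and 3429 (6411 reads) in platypus, or 272-fold (244 to 304) and 52.3-fold (49.1 to 55.8) higher. CD9, a tetraspanin, was 20.9-fold (19.3 to 22.6) higher in platypus and CD82, of the same family, 5.43-fold (3.81 to 8.03) higher in dog.

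Immune genes gave few members, since most matched ones fell short in platypus: of 58 matched chemokines, interleukins and receptors 7 were members. The interleukin 17 receptor chains IL17RA and IL17RE lay in opposite directions, 10.2-fold (7.04 to 15.4) higher in dog and 21-fold (13.5 to 33.4) higher in platypus. C3, the central complement protein, stood at 194 normalised CPM (3311 reads) in dog and 19.3 (36 reads) in platypus, 10.1-fold (7.25 to 14.4) higher in dog, and CD59, which blocks complement lysis, at 1.81 normalised CPM (31 reads) in dog and 28.9 (54 reads) in platypus, 15.9-fold (10.1 to 25.6) higher in platypus. In the toll-like receptor and NF-kB list 4 of 12 were higher in dog, including TRAF6 (6.2-fold), and IKBKG, a scaffold of the kinase that activates NF-kB, was 12.3-fold (10.5 to 14.4) higher in platypus. IFI30, a reductase of antigen processing, was 5.32-fold (3.97 to 7.32) higher in dog. IGHM stood at 10.2 normalised CPM (175 reads) in dog and 1473 (2754 reads) in platypus, 144-fold (123 to 169) higher in platypus.

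**Figure D5:**
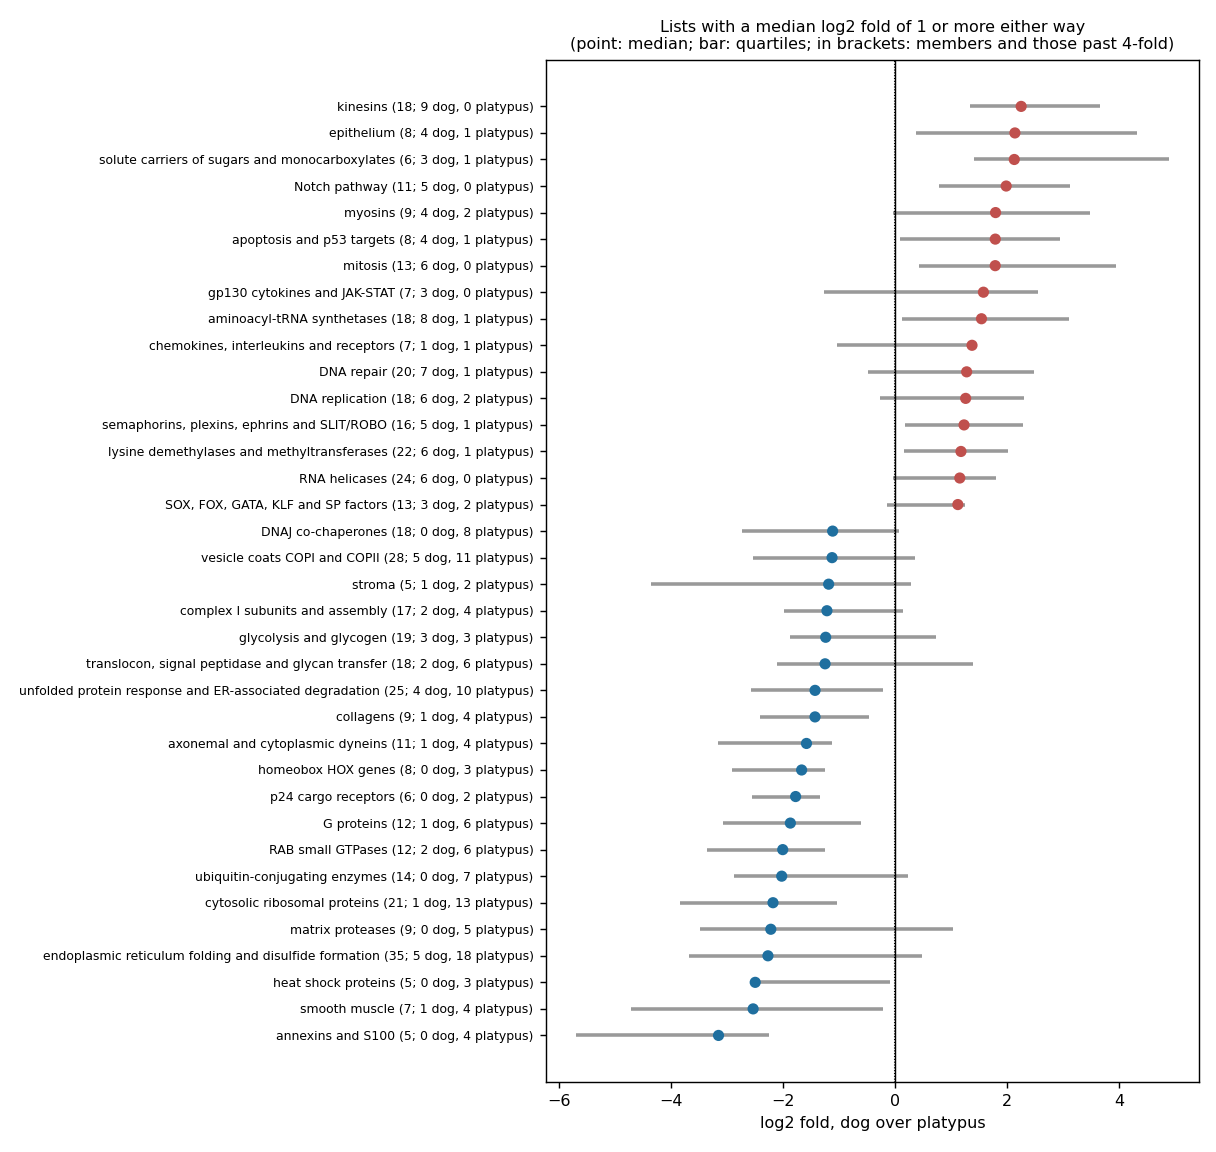
Median log2 fold of dog over platypus (points) with quartiles (bars) for the 36 lists of 5 or more members whose median was 1 or more either way; brackets give members and those past 4-fold. Kinesins (2.25) and epithelium (2.13) lie farthest towards dog, and annexins with S100 (-3.16) and smooth muscle (-2.54) farthest towards platypus.

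Other large folds belonged to genes outside these lists or of several functions. Towards dog they included IKBKAP, a subunit of the Elongator complex (95.1-fold (46.2 to 237)), CAPRIN1, a messenger RNA binding protein (72.7-fold (45.4 to 125)), RANGAP1, which drives the RAN cycle (65.4-fold (40.2 to 114)), AP2B1, a clathrin adaptor (74.1-fold (39 to 162)), and BSG, basigin, an adhesion protein with a known role in implantation (66.2-fold (36 to 138)). FAM38A, the mechanosensitive channel PIEZO1, was 92.3-fold (39.5 to 284) and PLEKHM2, which positions lysosomes, 57.3-fold (36.2 to 96.7) higher in dog. Towards platypus they included RIC8B, a chaperone of G protein subunits (137-fold (105 to 180.1)), ENPEP, the aminopeptidase that cleaves angiotensin (92.7-fold (78.1 to 111)), SAP30L, of a histone deacetylase complex (89.5-fold (75.6 to 107)), and MOSPD1 (92.3-fold (74.1 to 116)).

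At the other end, 1536 members (34%) differed by less than 2-fold. The 10 with the highest mean level within 1.5-fold included the mitochondrial ATP carrier SLC25A6 (1393 normalised CPM (23811 reads) in dog and 1724 (3223 reads) in platypus), the ribosomal protein RPS9 (1225 in dog and 1243 in platypus), the chaperonin subunit CCT5 (809 in dog and 779 in platypus) and the growth regulator PA2G4 (611 in dog and 615 in platypus). EIF4G1 and EIF3B, of translation initiation, APLP2, a relative of the amyloid precursor, PRDX6, a peroxiredoxin, and FKBP4 were also among them, with ratios of dog to platypus between 0.669 and 1.48.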

How the data were processed

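For dog the authors deposited estimated counts for each gene, which equal mapped bases divided by 34, per the file headers; 516 were not whole and were rounded. Deposited scores in the dog table (mapped bases and a relative abundance) served only to work out gene model lengths, which came out whole within 0.1 bases for 5644 of 5644 genes over 500 reads. For platypus and armadillo the values the authors deposited are unscaled read counts for each gene, per the file headers. RNA was column-purified with DNase treatment, per the labels' protocols, and Bowtie is named in the submitters' processing notes; information on its version, the genome builds, the annotation and reads with several matches was not given in the sources used here.

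Counts were divided by the table's summed gene counts, the dog total line left out, and scaled by median-of-ratios factors over the 3490 genes that passed 2 CPM in each of 3 libraries (0.797 dog, 0.997 armadillo, 1.20 platypus). Genes were matched by upper-case symbol, each occurring once in both tables. Folds used no pseudocount. Intervals are exact (Clopper-Pearson, conditional on the sum of both counts, 95%). With 1 library a species no p-value was computed. Python 3.11.15, pandas 2.3.3, scipy 1.17.1 and, for the TMM alternative, edgeR 4.0.16 were used, and the fold calculation was checked on simulated data.

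In all 117 gene lists were described by counts and by a median where 5 or more members were present (101 lists), beside the same values over all members. Genes were named by rule: the 20 members a direction with the largest fold by the interval bound nearest 1, up to 4 a direction in each list by the same measure past 4-fold, the 2 highest of a list without a call, 3 genes on each side of the 2 CPM limit, and the 10 highest members within 1.5-fold; other genes named within a list were chosen after their values were seen. The members and lists were chosen with earlier results of these data known, so their counts are no independent support. Lists by symbol pattern can hold unrelated genes. Alternatives covered scaling, floors, a pseudocount, intervals, names and length. Protein and promoter sequences were not analysed here.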

Additional observations from a re-analysis of the deposited data

How the results depend on the processing

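No replicate could be left out with 1 library a side. No paired analysis was possible because each species has 1 library and folds come from no test. Against 921 members higher in dog and 833 in platypus, the platypus count was 536 with library totals and 463 with totals over the members. Requiring at least 1 read in both gave 1488 and 1381 of 5946 genes. Stricter floors lowered the dog count to 530 at 5 CPM, 298 at 10 CPM (platypus 519) and 344 with 20 reads in both (platypus 821), a step chosen after the data were seen; 573 remained where the whole interval had to pass 4-fold. The other alternatives kept both counts within 1.5 times: median ratio over members, upper quartile, TMM, a pseudocount, RefSeq names, symbols shared with UniProt entry names left out, central lengths and the length trend removed. Under the scalings 35 list medians changed sign, all between -0.79 and -0.02 in the main values, and none of those past 1. The medians of 2 lists of few members reversed elsewhere: chemokines and interleukins, 1.37, became -1.61 with 1 read in both and -0.87 within central lengths, and gp130 cytokines and JAK-STAT, 1.57, became -1.03 at 5 CPM, at 10 CPM and with 20 reads. Of 523 called genes among those named, 457 stayed past 4-fold with library totals, 442 with totals over members and 457 with the length trend removed. Depth in platypus limits what is seen: genes under 5 reads there were not compared.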

Other observations

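Some genes that share a symbol stem lay on opposite sides. Symbols that share a stem before their final number or letter were grouped, so a group can hold unrelated genes. Of 644 such groups with 2 or more members, 61 held a gene with its interval wholly past 4-fold towards dog and another towards platypus. Over all members 12.7% had an interval wholly past 4-fold towards dog and 14.7% towards platypus. No expected number of such groups was worked out. The grouping and the pairs named here were chosen after their values were seen. Of the bromodomain genes, BAZ1B was 8.62-fold (5.99 to 12.9) higher in dog and BAZ2B 53.5-fold (40.6 to 71.5) higher in platypus. The cadherins CDH3 and CDH11 stood at 226 in dog and 16.6 in platypus and at 29.4 in dog and 158 in platypus. The Golgi tether subunits COG1 and COG6, which work in 1 complex, were 30.8-fold (14.9 to 76.8) higher in dog and 9.58-fold (8.71 to 10.5) higher in platypus. ANAPC1 and ANAPC10, of the complex that ends mitosis, stood at 160.1 in dog and 2.67 in platypus and at 4.45 in dog and 50.8 in platypus.

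Pairs from metabolism and signalling did likewise. DPP9 and DPP4, dipeptidyl peptidases of the cytosol and the cell surface, were 7.15-fold (4.99 to 10.6) higher in dog and 15.3-fold (11.7 to 20.1) higher in platypus. UQCRC1 and UQCRC2, the core subunits of respiratory complex III, stood at 268 in dog and 44.9 in platypus and at 171 in dog and 796 in platypus. RIC8A, a chaperone of inhibitory G protein subunits, was 20.3-fold (10.3 to 47.1) higher in dog while RIC8B was 137-fold (105 to 180.1) higher in platypus. Phospholipase genes PLCB3 and PLCB1 stood at 229 in dog and 3.74 in platypus and at 8.54 in dog and 55.6 in platypus. A symbol may be attached to another relative in one of the tables, and that was not tested.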
